A study of Mus musculus with 45 samples.

Results

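Chromosome 10 was followed by array comparative genomic hybridization in 45 mammary tumors from 8 genetically engineered mouse models. The probes were those that the array design places on chromosome 10 of the mm8 mouse genome, apart from 7 probes for 5 genes that were set aside when the stretch was defined. This left 2021 of the 42235 autosomal and X-linked probes. They run from chr10:3051921-129759311, a span of 126.7 Mb, at 15.95 probes per Mb, with a median gap of 24.3 kb and a largest gap of 3170 kb. They carry 1001 gene names, and another 328 probes are named by position alone.

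Array comparative genomic hybridization sets tumor DNA against reference DNA on the same array, so that the ratio of the dyes follows the relative number of copies. On the log2 scale 0 means equal copy number, and loss of a single copy in every cell of a diploid tumor would give -1. DNA of normal cells in the tumor, or a loss carried by only some tumor cells, brings the value nearer to 0. Chromosome 10 of the mouse has its centromere at the low-numbered end. It carries genes on both sides of growth control, among them the kinases Stk11 and Map2k2, the chromatin remodeling subunit Smarcb1, the phosphatases Ptprk and Dusp6, and the oncogene Hmga2.

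All tumors were, by their labels, mammary tumors of female mice. The models were MMTV-Her2/neu (n = 5), MMTV-c-Myc (n = 5), MMTV-H-Ras (n = 5), MMTV-PyMT (n = 9) and MMTV-Wnt1 (n = 5), in which the mammary tumor virus promoter drives the transgene mainly in mammary epithelium, and C3(1)/SV40 T/t-antigens (n = 5), in which the C3(1) promoter drives the viral antigens. BRCA1fl/fl;p53+/-;MMTV-cre tumors (n = 5) had Brca1 deleted by MMTV-driven Cre on a p53 heterozygous background, and p53fl/fl;MMTV-cre tumors (n = 6) lacked p53 and had been transplanted. Strain and age were not given in the labels. Each tumor had 1 array against spleen DNA, the arrays lay on 18 slides with at most 4 on a slide, and they were scanned on 10 dates. The single-probe noise, an SD, ran from 0.158 to 0.476. The labels do not tie tumors to separate mice beyond their names, so p-values measure the spread between these tumors.

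The labels give Cy5 to the tumor, but the interval table that accompanies the arrays has the opposite sign. Every log2 ratio here is Cy3 over Cy5, the direction of that table, centred on each array's autosomal median. A loss would be read as a gain with the dyes as labelled. In the direction used, the mean over chromosome X was -0.0251 in PyMt 3 and 0.417 to 1.74 in every other tumor. With the dyes as labelled, chromosome X would be low in those tumors. The direction was not tested further. Some arrays stood apart from their labels. C3TAg_5RPT and the MMTV-Her2/neu tumor H2N53 had almost the same profile over 2057 autosomal bins (r = 0.960), also without chromosome 10 (r = 0.956), and so had C3TAg_7RPT and H2N61 (r = 0.928, and 0.925 without chromosome 10). These were the highest of 990 pairs of tumors, although the arrays of a pair lay on different slides. The label of Wnt_4635 was in doubt as well, since its Wnt1 probe was not raised. The calls made between models on chromosome 10, the shared stretches and the gene lists are given with and without the near-identical arrays, while values of single genes in MMTV-Her2/neu include H2N53 and H2N61.

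The mean over chromosome 10 was low in 4 of the 5 MMTV-Her2/neu tumors and not in the fifth. It was -0.473 in H2NA, -0.433 in H2N53, -0.372 in H2N1 and -0.336 in H2N61, or 72.1%, 74.1%, 77.3% and 79.2% of the reference on a linear scale. In H2N64 it was 0.0316, or 102.2%. The 4 low tumors were far from a whole-copy difference in every cell, yet chromosome 10 was the lowest of the 19 autosomes in H2NA and H2N61, the second lowest in H2N53 and the 4th lowest in H2N1, against rank 11 in H2N64. The array of H2N64 was also noisier, with a single-probe SD of 0.336 against 0.170 to 0.209 in the other MMTV-Her2/neu arrays. All 5 arrays lay on different slides, and H2N64 and H2N53 were each the only one of the model on their scan dates. The part of noise, slide and scan date in its value was not tested.

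**Figure D1:**
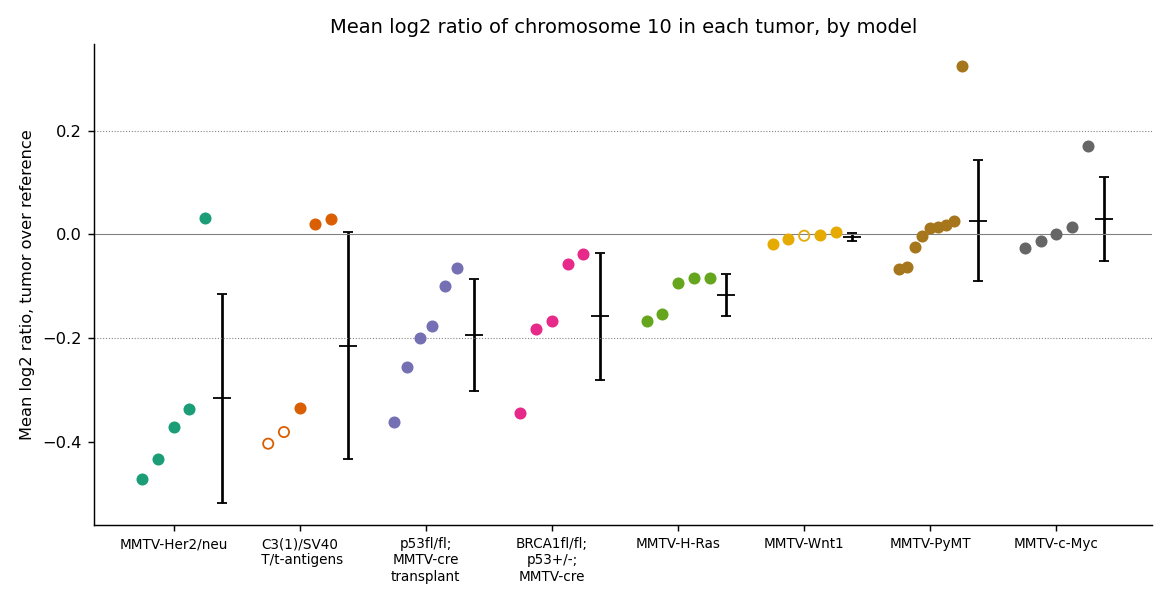
Mean log2 ratio of tumor over reference across the 2021 probes of chromosome 10 (y axis) for each of 45 tumors, by model in order of the model mean (x axis). Points are tumors, open circles are C3TAg_5RPT, C3TAg_7RPT and Wnt_4635, bars are mean ± SD and dotted lines mark 0.2 and -0.2; 4 MMTV-Her2/neu tumors lie between -0.473 and -0.336 and H2N64 at 0.0316.

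The MMTV-Her2/neu mean was -0.316 ± 0.202 (SD, n = 5), against -0.0810 ± 0.148 (SD, n = 40) in the other tumors, whose values ran from -0.404 to 0.326 with a median of -0.0474. The difference of -0.235 was larger than the spread between tumors in a two-sided exact permutation test (p = 0.00249, adjusted p = 0.0278 over 19 autosomes). Chromosome 7 differed to the same extent (-0.234, exact permutation p = 0.00292, adjusted p = 0.0278), so that 2 of 19 autosomes (10.5%) were lower in MMTV-Her2/neu. The ranges overlapped: tumors of 3 other models reached values as low as those of MMTV-Her2/neu. Leaving out the 4 arrays of the near-identical pairs gave -0.206 (adjusted p = 0.176). The call was also lost without H2N1 (adjusted p = 0.149), H2N53 (0.156), H2N61 (0.0527) or H2NA (0.134), in each case by exact permutation. Within slides, where 4 MMTV-Her2/neu tumors on 4 slides could be set against neighbors of other models, the difference was -0.431 (exact permutation p = 0.00694, the smallest that the 144 assignments allow; adjusted p = 0.0220). This value rests on the 4 low tumors alone, since H2N64 had no neighbor of another model on its slide. Leaving out H2N64 across all slides gave -0.322. The neighbors were MMTV-PyMT and MMTV-c-Myc tumors, with C3TAg2 and C3TAg4. None of them had a broad loss, and C Myc_04004021 (0.171) had a gain. Within the 3 scan dates that held all 5 tumors the difference was -0.230 (exact permutation p = 0.0209, adjusted p = 0.198). On the scan date of H2N64 the only other arrays were C3TAg_5RPT (-0.404), C3TAg_7RPT (-0.381), C3TAg_8_RPT (-0.336) and Haras_An5_3RPT (-0.0841). Of these, C3TAg_5RPT and C3TAg_7RPT belong to the near-identical pairs.

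The same test was applied to each of the 8 models against all other tumors. Besides MMTV-Her2/neu (adjusted p = 0.0200 over 8 models), only MMTV-PyMT passed, in the other direction, with a mean of 0.0268 ± 0.117 (SD, n = 9) and a difference of 0.167 (exact permutation, adjusted p = 0.0254). Without PyMt435, the single tumor with chromosome 10 at 0.326, the MMTV-PyMT mean was -0.0105, the difference was 0.13 and the call was lost. It was also lost without H2N53 or H2NA, within slides or scan dates, at the zero of the deposited interval table (added after seeing the data), and without the 4 arrays of the near-identical pairs, where 0 of the 8 models passed. C3(1)/SV40 T/t-antigens tumors had a mean of -0.214 ± 0.219 (SD, n = 5), p53fl/fl;MMTV-cre transplants -0.193 ± 0.108 (SD, n = 6) and BRCA1fl/fl;p53+/-;MMTV-cre tumors -0.158 ± 0.123 (SD, n = 5). None of these differed from the other tumors beyond their spread (adjusted p = 0.239, 0.244 and 0.555 by exact permutation). The remaining models lay nearer to 0, at -0.116 ± 0.0406 (SD, n = 5) in MMTV-H-Ras, -0.00490 ± 0.00858 (SD, n = 5) in MMTV-Wnt1 and 0.0296 ± 0.0807 (SD, n = 5) in MMTV-c-Myc.

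Set against single models, MMTV-Her2/neu was lower than MMTV-PyMT by -0.343 (exact permutation p = 0.00450, adjusted p = 0.0315 over 7 pairs). Larger or similar differences against MMTV-c-Myc (-0.346) and MMTV-Wnt1 (-0.311), and a smaller one against MMTV-H-Ras (-0.20), did not pass (adjusted p = 0.0972 each by exact permutation, where 5 tumors against 5 cannot give a p below 0.00794). The neighbors in the order did not differ beyond their spread: the difference was -0.102 against C3(1)/SV40 T/t-antigens (adjusted p = 0.397), -0.123 against the p53 transplants (0.258) and -0.158 against BRCA1fl/fl;p53+/-;MMTV-cre (0.256). H2N64 weighed on these pairs. Without it MMTV-Her2/neu was lower than 6 of the 7 models, and without any other MMTV-Her2/neu tumor than none. Without the 4 arrays of the near-identical pairs 0 pairs of models passed, so that the call against MMTV-PyMT was lost. Within slides the difference from MMTV-PyMT was -0.416, where the exact permutation p of 0.125 was the smallest that the 16 assignments allow.

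The lower values in MMTV-Her2/neu ran along the whole chromosome. The difference from the other tumors was -0.215 over the 572 probes below 45 Mb, -0.241 over the 742 probes from 45 to 85 Mb and -0.246 over the 707 probes beyond 85 Mb (exact permutation, adjusted p = 0.00590, 0.00525 and 0.00740 over 3 stretches). Without the 4 arrays of the near-identical pairs none of the 3 passed. In the 4 low tumors the distal stretch differed from the rest of the chromosome by only -0.000624 to 0.0510. Divided into bins of 1 Mb, all 112 bins of chromosome 10 were lower in MMTV-Her2/neu than in the mean of the other 7 models, by -0.389 to -0.134 with a median of -0.221 and a median SE of 0.0793. None of them passed limma with Benjamini-Hochberg adjustment over 2057 autosomal bins, in which 0 of the 2057 bins were lower (0%) and the lowest adjusted p on chromosome 10 was 0.102. At an unadjusted p under 0.05, 99 of the 112 bins (88.4%) were lower, against 338 of 2057 (16.4%) over all autosomes. Without the 4 arrays of the near-identical pairs 43 of the 112 were, against 147 of 2057 (7.15%). The count of 0 changed with single tumors and settings. Without H2N64 107 bins of chromosome 10 were lower after adjustment, among 254 of 2057 (12.3%) over all autosomes. Without Brcap53_682 it was 1, the only one of 2057 (0.0486%). With array weights, which give noisy arrays less weight, it was 111 among 481 (23.4%).

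**Figure D2:**
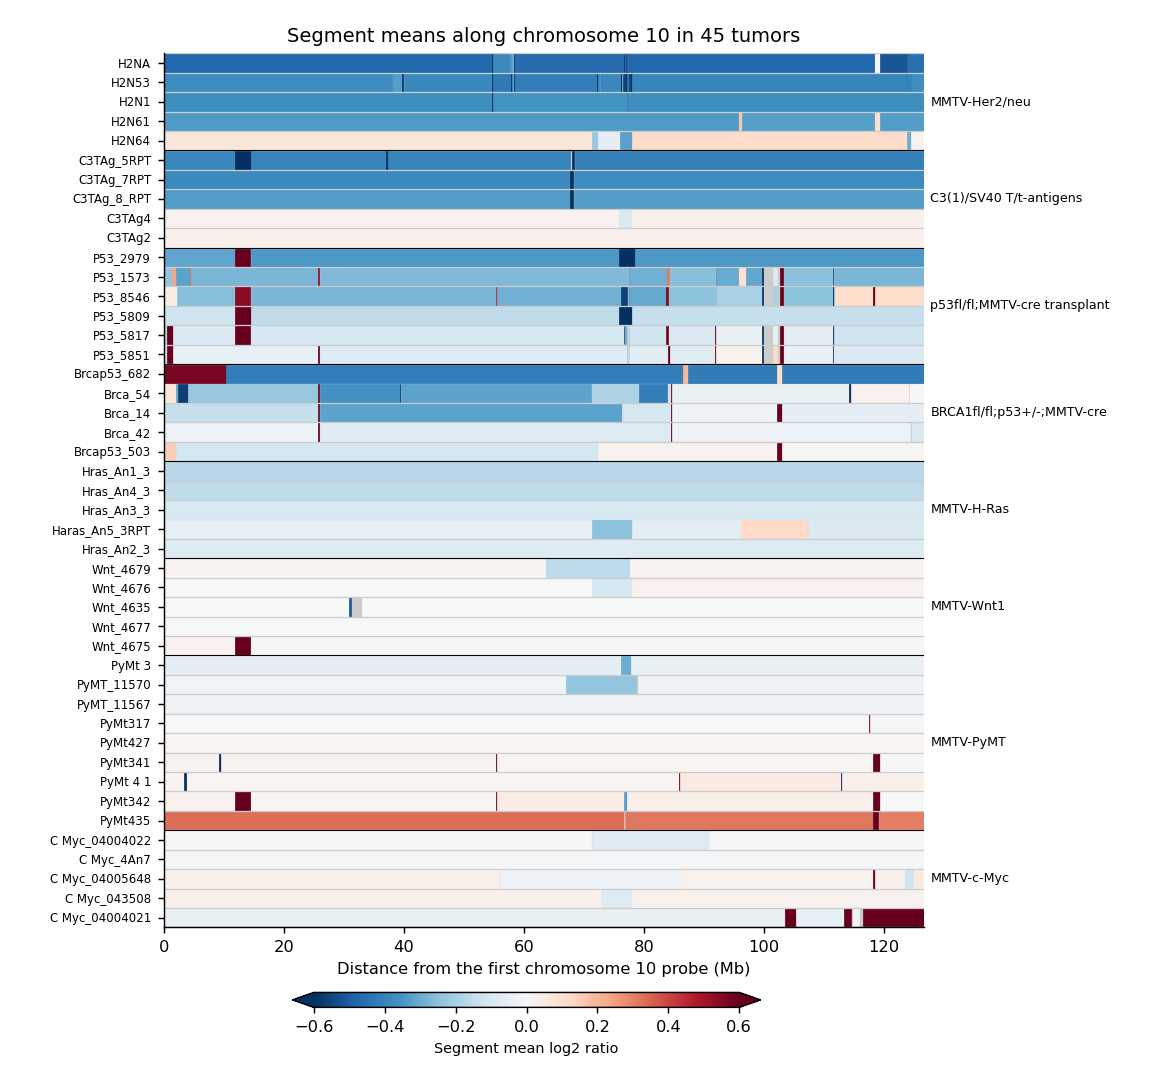
Segment means of the log2 ratio (color, blue for lower and red for higher in the tumor) along chromosome 10, in Mb from the first probe (x axis), for 45 tumors grouped by model (rows); grey marks gaps between segments. H2NA, H2N53, H2N1, H2N61 and the 3 C3TAg RPT tumors are low along nearly the whole chromosome, PyMt435 is high along it, and single tumors of BRCA1fl/fl;p53+/-;MMTV-cre and the p53 transplants change along the chromosome.

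Segments were called lost or gained where their mean was at least 0.2 in size. Of the 45 tumors, 11 had lost at least 50% of the chromosome 10 probes and 16 at least 10%. Broad loss was seen in 4 of 5 MMTV-Her2/neu tumors (80%, exact Clopper-Pearson 95% interval 28.4 to 99.5%), 3 of 5 C3(1)/SV40 T/t-antigens tumors (14.7 to 94.7%), 3 of 6 p53 transplants (11.8 to 88.2%) and 1 of 5 BRCA1fl/fl;p53+/-;MMTV-cre tumors (0.505 to 71.6%). It was not seen in MMTV-PyMT (0 of 9, up to 33.6%) or in MMTV-c-Myc, MMTV-H-Ras and MMTV-Wnt1 (0 of 5 each, up to 52.2%). The intervals of the models overlap. Without the 4 arrays of the near-identical pairs 7 broad losses were left, 2 of them in MMTV-Her2/neu. At the limit of 10%, H2N64 (11.5%) and Haras_An5_3RPT (15.8%) lay just inside, and P53_5809 (7.52%) and PyMt 3 (5.94%) just outside. At the limit of 50%, P53_8546 (75.6%) lay inside and Brca_54 (48.7%) outside.

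The 3 C3(1)/SV40 T/t-antigens tumors with a broad loss, C3TAg_5RPT (-0.404), C3TAg_7RPT (-0.381) and C3TAg_8_RPT (-0.336), came from 1 slide and 1 scan date and had lost 100% of the probes. The other tumors of the model, C3TAg2 (0.0290) and C3TAg4 (0.0198), lay on slides with MMTV-Her2/neu arrays and had lost none. The model therefore fell into separate groups of tumors, and slide cannot be told apart from the loss within it. Since C3TAg_5RPT and C3TAg_7RPT belong to the near-identical pairs, without them C3TAg_8_RPT alone of the model had a broad loss. In the p53 transplants the means ran from -0.363 in P53_2979 and -0.256 in P53_1573, through -0.199 in P53_8546, -0.176 in P53_5809 and -0.1004 in P53_5817, to -0.0639 in P53_5851.

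How much of this was loss depended on where 0 was set. The deposited interval table implies a zero for each array that differs from the autosomal median, by up to 0.392. In the MMTV-Her2/neu tumors the shift was small, and the chromosome 10 means at that zero were -0.572, -0.522, -0.403 and -0.320, with H2N64 at -0.0147. It was 0.392 in C3TAg_5RPT, 0.323 in C3TAg_8_RPT and 0.265 in P53_1573, which moved these tumors to -0.0118, -0.0130 and 0.00820. C3TAg_7RPT (-0.332), Brcap53_682 (-0.393) and P53_2979 (-0.488) stayed low, and P53_5817 fell to -0.216. A mean of -0.2 or less was thus reached by 10 tumors with the autosomal median as 0 and by 8 with the other zero, 7 of which were the same tumors. The 4 low MMTV-Her2/neu tumors were among the 7, and the difference from the other tumors grew to -0.344 (exact permutation p = 0.000262, adjusted p = 0.00249). That zero set the near-identical arrays of C3TAg_5RPT and H2N53 apart, with shifts of 0.392 and -0.0885 that put them at -0.0118 and -0.522. Without the 4 arrays of both such pairs the difference was -0.315 (exact permutation p = 0.00516, adjusted p = 0.0452). These comparisons were added after seeing the data.

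**Figure D3:**
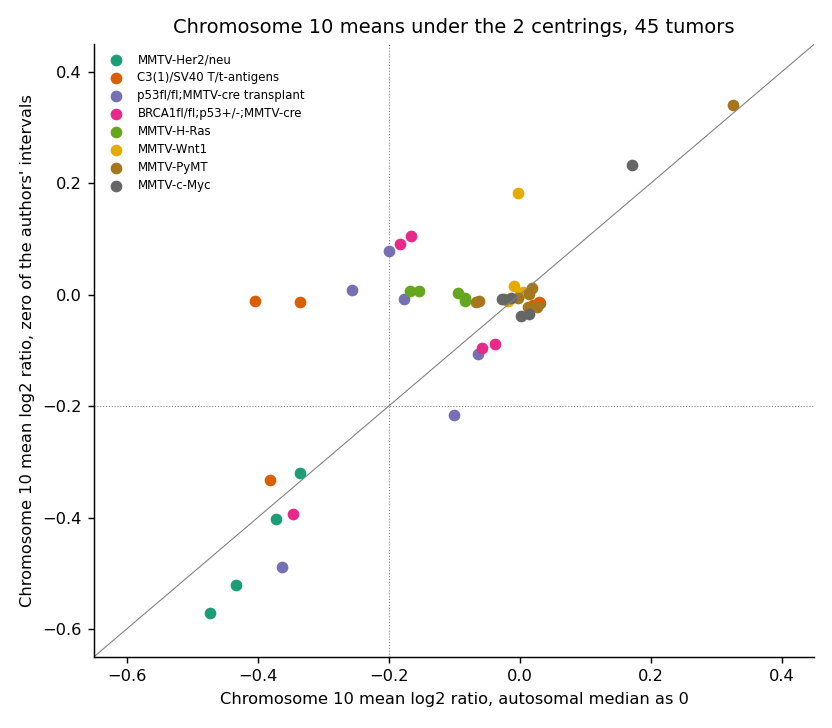
Chromosome 10 mean log2 ratio of each of 45 tumors with the autosomal median as 0 (x axis) and with the zero implied by the deposited interval table (y axis), colored by model. The solid line marks equal values and dotted lines -0.2; the 4 low MMTV-Her2/neu tumors are below -0.2 on both axes, while C3TAg_5RPT, C3TAg_8_RPT and P53_1573 move to about 0.

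Because 4 MMTV-Her2/neu tumors had lost nearly the whole chromosome, the shared part of the loss was set by H2N64. Probes lost in at least 4 of the 5 tumors covered 125.1 Mb (2009 probes, 99.4%). Probes lost in all 5 covered only 3.60 Mb in 3 stretches (233 probes, 11.5%). The first, chr10:74415899-75393371, held 46 probes from Gnaz, a G protein subunit, to Vpreb3, with a mean of -0.370 ± 0.0987 (SD, n = 5). The second, chr10:78986848-81032708, held 148 probes from Theg to Ankrd24, with a mean of -0.488 ± 0.174 (SD, n = 5), and includes Stk11, Tcf3, Csnk1g2, Dot1l, Gadd45b, Map2k2 and Gna11. The third, chr10:126911711-127493325, held 39 probes from Stac3 to Atp5b, a subunit of the mitochondrial ATP synthase, with a mean of -0.396 ± 0.0874 (SD, n = 5), and includes Lrp1. Without H2N53 and H2N61 the probes lost in all 3 remaining tumors still covered 3.60 Mb, and those lost in at least 2 of them 125.7 Mb.

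In H2N64 the segments at these places had means of -0.227, -0.328 and -0.293. The medians of their probes differed from the median of the rest of its chromosome 10 by -0.241, -0.364 and -0.318. By the median of the probes the other MMTV-Her2/neu tumors showed no such step. Their medians differed from that of the rest of their own chromosome by -0.0300 to 0.0197 in the first stretch, -0.0638 to -0.00425 in the second and 0.00784 to 0.0356 in the third. The means tell H2N53 apart: over the second stretch its mean was -0.764, a departure of -0.357 from the mean of the rest of its chromosome 10, against -0.388 in H2N64 and -0.0836 to -0.0380 in the other 3. Of its probes there 66.9% were below the median of the rest, against 87.8% in H2N64.

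The array of H2N64 shared probe-level structure with that of Haras_An5_3RPT, of another model and slide but the same scan date. Their residuals from the segment means correlated at r = 0.840 over the 2021 probes, against a median of 0.13 over the 990 pairs of tumors. Such values were not particular to this pair: it was the fourth highest, and the other 5 of the highest 6, from 0.809 to 0.937, were pairs within a model. Both arrays dipped in all 3 stretches (-0.128, -0.247 and -0.201 in Haras_An5_3RPT). They were also close at Rnf41 (-0.793 in H2N64, -0.703 in Haras_An5_3RPT), Map2k2 (-0.506 and -0.518) and Plagl1 (-0.439 and -0.441). The part of scan date and array in the dips of H2N64, on which the stretches shared by all 5 tumors rest, was not tested. The 3 stretches were rich in probes, at 47.1, 72.3 and 67.1 per Mb against 15.95 on the whole chromosome, and slightly brighter, with median log2 signals of 10.26, 10.47 and 10.43 against 10.20. With a lowess correction of the ratio for brightness on each array, the departures in H2N64 were -0.199, -0.212 and -0.287, and no probe was lost in all 5 tumors. The part of probe density and brightness in these steps was not tested further.

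The second stretch dipped in other models as well. Its median lay at least 0.1 below that of the rest of the tumor's own chromosome 10 in 14 of 45 tumors and at least 0.2 below in 5, namely H2N64 (-0.364), P53_5809 (-0.336), Haras_An5_3RPT (-0.247), P53_2979 (-0.225) and PyMt 3 (-0.223). The median over the 45 tumors was -0.0579 and the range -0.364 to 0.0834. The stretch at Gnaz was at least 0.1 below in 10 tumors and the stretch at Stac3 in 9. No BRCA1fl/fl;p53+/-;MMTV-cre tumor was among the 14, where the departure ran from -0.0336 to 0.0834. Called segments ended near the same places in several tumors. P53_5809 had chr10:78936094-81032708 at -0.608, P53_2979 chr10:78936094-81484497 at -0.65, P53_8546 chr10:79158598-80302635 at -0.560 and PyMt 3 chr10:79242995-80934302 at -0.297. In Haras_An5_3RPT chr10:74415899-81032708 was at -0.247, and in PyMT_11570 chr10:70002857-81713677 was at -0.235.

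Counted along the chromosome, between 8 and 20 of the 45 tumors had lost any given probe, with a median of 12. In MMTV-Her2/neu the count was 2 to 5 of 5, with a median of 4, and in the others 4 to 15 of 40, with a median of 8. The probe lost in most tumors, 20 of 45, lay in the second shared stretch, at chr10:80201513-80201566, and carried the name AK088567. No model but MMTV-Her2/neu and the p53 transplants had a probe lost in all of its tumors.

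**Figure D4:**
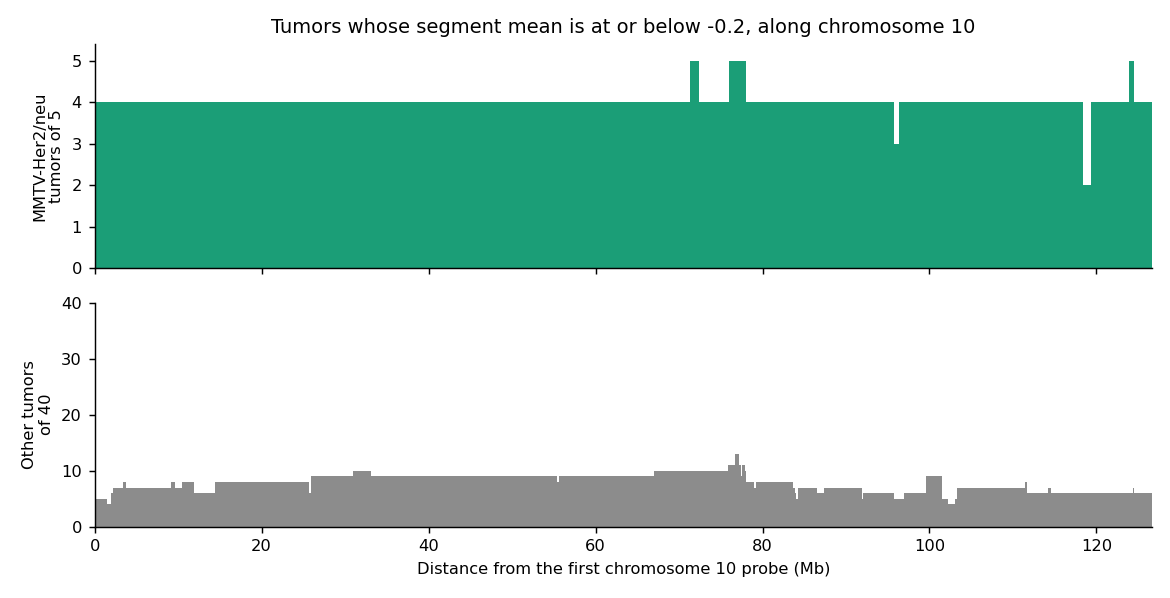
Number of tumors whose segment mean is at or below -0.2 (y axes) along chromosome 10, in Mb from the first probe (x axis), for 5 MMTV-Her2/neu tumors above and 40 other tumors below; each count is carried on to the next probe. In MMTV-Her2/neu the count stands at 4 with short rises to 5 and dips to 3 and 2, and in the other tumors its median is 8, the peak of 15 at 1 probe being too narrow to show.

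Genes of 4 lists were read at their probes: genes that restrain growth, genes that promote it, ErbB receptor signalling, and the Hippo and Wnt pathways. Of the growth restraint genes 19 of 23 had probes, and all 19 were lower in MMTV-Her2/neu than in the other tumors, with a median of -0.292 in MMTV-Her2/neu and a median difference of -0.221. The same held for 17 of 19 growth promoting genes (17 lower, median -0.306, median difference -0.25), 7 of 8 ErbB signalling genes (7 lower, -0.341 and -0.303) and 7 of 9 Hippo and Wnt genes (7 lower, -0.335 and -0.273). Over all 1001 gene names on the chromosome 985 were lower, with a median of -0.318 and a median difference of -0.227, so that no list is set apart from the chromosome by these counts. Without the 4 arrays of the near-identical pairs the same numbers of list genes were lower, with median differences of -0.208, -0.233, -0.291 and -0.247 in the order above, and 962 of the 1001 gene names were (median difference -0.209). Every measured list gene was lost in at least 4 of the 5 tumors, as were 99.4% of all probes of the chromosome. Lost in all 5, as were 11.5% of the probes, were Smarcb1, Stk11 and Gadd45b among the restraint genes, Map2k2, Gna11 and Dot1l among the promoting genes, Map2k2 and Lrp1 in ErbB signalling, and Csnk1g2, Apc2, Tcf3 and Lrp1 in the Hippo and Wnt list. Each such call is that of the segment around the gene. In H2N64 the probes themselves read -0.0895 at Smarcb1, -0.0868 at Dot1l and 0.259 at Stk11, and -0.227 or lower at the other genes named. Tcf3, which the counts and medians of the Hippo and Wnt list include, is the transcription factor also named E2A (Tcfe2a on the array). It is not the Wnt effector of a like name.

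Among the restraint genes Plagl1, a zinc finger transcription factor gene toward the centromere, read -0.436 in H2N1, -0.420 in H2N53, -0.426 in H2N61, -0.439 in H2N64 and -0.652 in H2NA (-0.475 ± 0.0997, SD, n = 5). Its probes were low in all 5 tumors although the segment around it was not called lost in H2N64. They read low elsewhere too, with a mean of -0.212 ± 0.237 (SD) in the other 40 tumors. Ptprk, a receptor tyrosine phosphatase, read -0.450, -0.372, -0.411, 0.108 and -0.580 in the same order, low in 4 tumors and above 0 in H2N64. Prdm1, a transcriptional repressor that acts in lymphocyte differentiation, was low in the same 4 tumors and -0.0234 in H2N64 (-0.405 ± 0.260, SD, n = 5), against a mean of -0.226 ± 0.230 (SD) in the other 40 tumors. Apaf1 of the apoptosome (-0.347 ± 0.332, SD, n = 5) and the stress-response gene Ddit4 (-0.344 ± 0.289, SD, n = 5) were low in these 4 and above 0 in H2N64. Stk11, the kinase upstream of AMPK, had 1 probe, which read 0.259 in H2N64 within a segment called lost there, and -0.227 to -0.538 in the other 4. Smarcb1 had -0.237 ± 0.111 (SD, n = 5) and Gadd45b -0.370 ± 0.166 (SD, n = 5). Single probes of other genes were too noisy to place: that of Btg1, an antiproliferative gene, gave -0.185 ± 0.808 (SD, n = 5).

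Of the growth promoting genes Map2k2, the MEK2 kinase of the MAP kinase cascade, read -0.512 in H2N1, -0.447 in H2N53, -0.486 in H2N61, -0.506 in H2N64 and -0.605 in H2NA. The spread (-0.511 ± 0.0581, SD, n = 5) was the narrowest of the measured list genes apart from Lrp1. In the other 40 tumors it averaged -0.0929 ± 0.334 (SD), with the segment lost in 9 and gained in 5. Fyn, a Src family kinase, averaged -0.483 ± 0.193 (SD, n = 5) and was -0.141 in H2N64, against a mean of -0.269 ± 0.211 (SD) in the other 40 tumors. Igf1, the insulin-like growth factor, read -0.556, -0.516, -0.455, 0.0286 and -0.622. Gna11, a G protein subunit, averaged -0.672 ± 0.50 (SD, n = 5), where H2N53 alone read -1.53 and the others -0.553 to -0.227. Myb (-0.152 ± 0.170, SD, n = 5) and the Hedgehog effector Gli1 (-0.104 ± 0.0750, SD, n = 5) were the nearest to 0, along with Lin28b, whose single probe was noisy (-0.114 ± 0.662, SD, n = 5).

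In ErbB signalling Dusp6, a phosphatase that switches off ERK, read -0.533, -0.544, -0.377, -0.261 and -0.319 in H2N1, H2N53, H2N61, H2N64 and H2NA, below 0 in every tumor. Lrp1, an endocytic receptor, read -0.294, -0.321, -0.316, -0.392 and -0.354 (-0.335 ± 0.0383, SD, n = 5). Rnf41, a ubiquitin ligase that controls the level of ErbB receptors, had 1 probe with -0.413 ± 0.226 (SD, n = 5) and its lowest value, -0.793, in H2N64. Frs2, an adaptor of fibroblast growth factor receptors, had -0.298 ± 0.38 (SD, n = 5), low in 4 tumors and 0.359 in H2N64. Csnk1g2, a casein kinase that acts in Wnt signalling, averaged -0.651 ± 0.438 (SD, n = 5), with -1.402 in H2N53.

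Segments at or beyond -1 numbered 31 on chromosome 10, in 12 tumors, and 13 were at or above 1, in 7 tumors. H2N53 had 12 of the low ones, 33.9 to 274 kb long with 5 to 13 probes, and 6 of them lay in the second shared stretch. None of the 12 had all its probes at -1 or less. In only 2 of the 12 was the median of H2N53 below that of each other tumor: chr10:79744700-79819769, with Mbd3 and Tcf3, where 4 of 6 probes were at -1 or less (median -1.36, others -0.961 to 0.409), and chr10:80896536-80934302, with Ncln, Gna15 and Gna11, where 3 of 5 were (median -2.86, others -0.911 to 0.475). C3TAg_5RPT, whose profile was otherwise almost that of H2N53, read -0.406 and -0.313 at these places. The remaining low segments of H2N53 held 1 to 5 probes at -1 or less, so their means stand for a few spots. H2N1 and H2NA had 2 and 4 such segments, each resting on 1 or 2 probes.

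In BRCA1fl/fl;p53+/-;MMTV-cre tumors the loss had edges inside the chromosome. Brcap53_682 combined both directions: chr10:3051921-13377480, with 137 probes up to the gene Aig1, was gained at 0.57 (7.32% of the probes, counting outlier spots left out of the mean), and 92.1% of the probes were lost, in segments at -0.418 to -0.416. Between them 5 probes at 0.195, ending at Apaf1, and 7 probes at 0.104, from Ccdc59 to Ppfia2, were not called. The gained end holds Plagl1 (0.414), Akap12 (0.700) and Sash1 (0.530). Brca_14 had lost chr10:29011685-79325311, from Echdc1 to Kiss1r, at -0.320 (777 probes), and Brca_54 had lost 48.7% of the probes, all but 5 of them up to chr10:86958148. Its 4 longest lost segments were at -0.232, -0.365, -0.320 and -0.416, and 342 probes from chr10:74397377 to 82244242 were not called, at -0.184. From chr10:87758906 on its 3 longest segments were at -0.0405 to 0.0277, with 5 probes from Rap1b to Mdm1 at -0.737 and 5 probes from AY053573 on at 1.11. Brcap53_503 (-0.0381) and Brca_42 (-0.0568) had no broad change. Lost in 3 of 5 tumors was chr10:29011685-74145614, 45.1 Mb with 574 probes. The losses of Brca_14 and Brca_54 depended on the zero. At that of the deposited interval table their chromosome 10 means were 0.106 and 0.0912, 0% and 0.346% of the probes lay in its lost intervals, and 42.3% and 33.2% in gained ones. The difference between the distal stretch and the rest does not depend on centring. It was 0.241 in Brca_54, 0.206 in Brca_14 and -0.0885 in Brcap53_682.

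Among the p53 transplants P53_8546 had an edge of this kind. Its longer segments were low up to chr10:114870647, at the stem cell receptor gene Lgr5, and at 0.107 and 0.110 from there on, with 6 probes up to Tmem5 between them at 0.843. The distal stretch lay 0.230 above the rest. At the zero of the interval table its mean was 0.0778, with 3.81% of the probes in lost and 18.0% in gained intervals. The step itself does not depend on the centring. In the other 5 transplants the stretches differed by -0.00129 to 0.0461. In limma 99 of 2057 bins (4.81%) were lower in the p53 transplants than in the mean of the other 7 models, and 9 of the 112 bins of chromosome 10 (8.04%), by -0.278 to -0.192. The transplants shared no slide with another model, so slide and model cannot be told apart in these calls. The lowest adjusted p was that of the bin from 79 Mb (-0.265 ± 0.0695 SE, adjusted p = 0.0136). The count on chromosome 10 fell to 0 without P53_2979 (5.06% of all autosomal bins called) or P53_5809 (2.09%), to 2 without P53_8546 (2.43%) and to 0 with the zero of the deposited interval table (0.146%). It rose to 25 without P53_5851 (6.9%) and to 13 without the 4 arrays of the near-identical pairs (4.38%). In MMTV-PyMT 52 of 2057 bins (2.53%) were higher, 18 of them on chromosome 10 (16.1% of its bins), by 0.194 to 0.278. That count was 7 without PyMt435 (2.72% of all autosomal bins called), 6 without the 4 arrays of the near-identical pairs (1.31%) and 4 without PyMt 3 or PyMt341 (0.243% each). It was 0, with 0% of all bins called, without PyMt342 or PyMT_11570 and with the zero of the interval table. These counts were added after seeing the data.

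**Figure D5:**
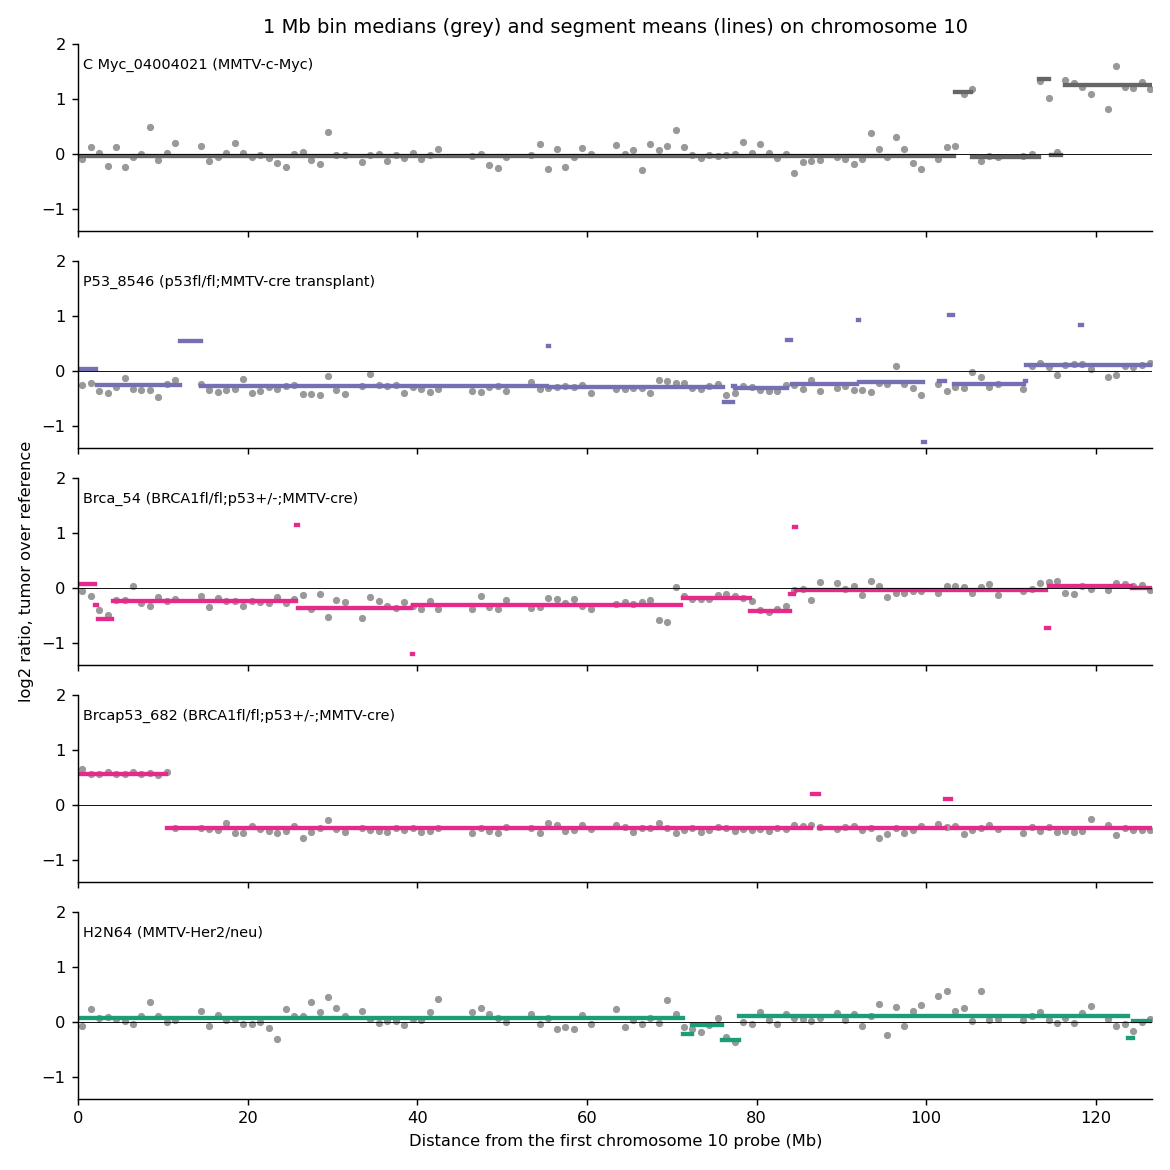
Log2 ratio of tumor over reference (y axes) in 1 Mb bins (grey points, bin medians) and segments (colored lines, segment means) along chromosome 10, in Mb from the first probe (x axis), in 5 tumors. C Myc_04004021 has gained segments at 1.126 to 1.355 near the distal end, P53_8546 and Brca_54 return to about 0 there, Brcap53_682 is gained at the proximal end and lost beyond it, and H2N64 is near 0 with short dips.

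A gain of at least 10% of the distal probes was seen in 2 of 45 tumors, MMTV-c-Myc tumor C Myc_04004021 (1 of 5, exact Clopper-Pearson 95% interval 0.505 to 71.6%) and MMTV-PyMT tumor PyMt435 (1 of 9). The number depended on the settings: it was 5 at the zero of the interval table or with its intervals, and 6 with a running median of 11 probes. The tumors differed in kind. PyMt435 was raised over the whole chromosome, with 99.5% of the probes gained and the long distal segments at 0.307 and 0.323. Between these 6 probes up to Ppm1h read 0.823. In C Myc_04004021 the gain covered 47.8% of the distal probes in 3 separate segments, and the proximal stretch read -0.0300. The probes between the gained segments were at -0.0510 and -0.0206, and those before the first at -0.0455. On a linear scale the segments were 2.18-fold, 2.56-fold and 2.37-fold over the reference. Over the same probes the other 44 tumors ran from -0.462 to 0.363, -0.491 to 0.276 and -0.462 to 0.320.

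The first segment, chr10:106488974-108388412 (24 probes), held Lin7a, the muscle regulator Myf6, the phosphatase subunit Ppp1r12a, the apoptosis regulator Pawr and the synaptic vesicle gene Syt1, with its highest probe (1.87) named AK041657. The second, chr10:116352687-117575704 (37 probes), held Rab3ip, Cct2, Frs2, Yeats4, Cpsf6, Nup107 and Rap1b, with its highest probe (2.31) at D630029K05Rik. Yeats4, a subunit of histone-modifying complexes, read 1.92 on 1 probe, Rap1b, a Ras-like GTPase, 1.09 on 3 probes and Frs2 0.508 on 2 probes. Lgr5, between the first segment and the second, read -0.126. The third segment ran from chr10:119487187 to the last probe (277 probes), with its highest probe (2.78) at the olfactory receptor gene Olfr807. It held Hmga2, a chromatin architectural protein (1.30 on 3 probes), the Wnt inhibitor Wif1 (1.14 on 2), the stress-induced transcription factor Ddit3 (1.78 on 2), Gli1 (0.992 on 1), Lrp1 (1.06 on 2), Rnf41 (1.53 on 1) and the ErbB-binding protein gene Pa2g4 (0.858 on 1). The 10 list genes in the gained segments ran from 0.508 to 1.92 with a median of 1.12, and the 35 others from -0.504 (Fyn) to 0.874 (Btg1) with a median of 0.0406. The values overlapped, since Stk11 (0.632), Gadd45b (0.583), Apc2 (0.556) and Lin28b (0.535), outside the segments, read above Frs2.

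Short segments that departed from a tumor's own chromosome 10 by at least 0.4 recurred in at least 3 tumors at 14 places, which were chosen after seeing the data. At 5 of these no more than 1 probe had moved in all the tumors, and at 1 place all probes had. That place was chr10:80482678-80527442, with the peptidase gene Thop1, the transcription factor gene Creb3l3 and Map2k2. It was raised in 4 of the 6 p53 transplants, P53_1573, P53_5817, P53_5851 and P53_8546, where the median of its 6 probes lay 0.846 to 0.969 above that of the chromosome. In the other 41 tumors the median ran from -0.461 to 0.174 relative to the chromosome, and Map2k2 itself read -0.776 in P53_2979 and -0.705 in P53_5809, the other p53 transplants. These tumors also shared probe-level structure along the chromosome: residuals from the segment means correlated at r = 0.620 to 0.873 in the 6 pairs of the 4 raised tumors, at 0.937 between P53_2979 and P53_5809, and at 0.228 to 0.523 in the 8 pairs across. Its part in the rise at this place was not tested. A second place, chr10:87521312-87675968 with Pmch, Nup37 and Ccdc53, was raised in Brca_14, Brca_42 and Brca_54, where 4 of its 6 probes had moved in all 3 tumors and the medians lay 0.95 to 1.20 above that of the chromosome. These 3 arrays shared a slide and a scan date, apart from the rest of the model, and the part of either was not tested. Both other tumors of this model were raised there too, Brcap53_503 by 0.486 and Brcap53_682 by 0.469, while the highest tumor of another model, PyMT_11570, was at 0.309.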

How the data were processed

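DNA of 45 tumors was hybridized against reference DNA, 1 array each. The authors deposited Agilent Feature Extraction output (9.5.1.1 in the file headers, 10.7 in the submitters' processing notes), with background-subtracted, dye-normalized intensity values and a log10 ratio of Cy5 over Cy3 per spot, and an interval table with log2 means from an aberration detection method. The p-values of that deposited table and the 8 tables of single models were not used. Ratios were turned to log2 of Cy3 over Cy5, outlier and control spots left out, spots of a probe averaged, and the autosomal median subtracted. On each array 96.6 to 99.8% of probes were well above background. Median Cy5 signal was 2.09 to 14.4 times background and Cy3 3.67 to 16.7 times, which with the number of arrays limits precision.

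Circular binary segmentation (Python 3.11.15, numpy 2.4.6, numba 0.67.0) accepted splits at a statistic over 6 and segments of at least 5 probes, and was tested on simulated data. Bins of 1 Mb with at least 3 probes were fitted with limma 3.58.1 in R 4.3.3 over all 8 models. Means were compared by two-sided exact permutation tests with Benjamini-Hochberg adjustment, and intervals are Clopper-Pearson (scipy 1.17.1). Genes named were those of 4 lists, those at the ends and extremes of shared and gained segments, and those of segments beyond 1 in size; others are said to be chosen after their values were seen. Of 1001 gene names 683 were found in a RefSeq table used for names alone. Members, lists and tests were chosen with earlier results of these data known, so the tests are not independent of them. Alternatives covered centring, background, brightness, dim and outlier spots, direction, thresholds, slide, scan date and left-out tumors; correction for GC content was not run.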

Additional observations from a re-analysis of the deposited data

Results flagged for a closer look

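Of 32 combinations of model and measure (chromosome 10 mean, proximal, middle and distal mean), 10 had a tumor far from the rest of its model by Dixon's test at the 95% level, which flags about 1 in 20 groups by chance; the measures overlap, so the 10 are not separate. In MMTV-Her2/neu, H2N64 stood apart in the chromosome 10 mean (0.0316, others -0.473 to -0.336), the proximal mean (0.0879) and the distal mean (0.0813). In MMTV-PyMT, PyMt435 stood apart in the chromosome 10 mean (0.326), the proximal mean (0.342), the middle mean (0.314) and the distal mean (0.324), where the other 8 tumors lay between -0.126 and 0.0398. In MMTV-c-Myc, C Myc_04004021 stood apart in the chromosome 10 mean (0.171, others -0.0265 to 0.0145) and in the distal mean (0.554, others -0.0257 to 0.0208). In BRCA1fl/fl;p53+/-;MMTV-cre, Brcap53_682 stood apart in the distal mean (-0.403, others -0.0499 to 0.0247). Causes were not tested.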

How the results depend on the processing

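No paired analysis was possible because the replicate numbers only follow the order of the samples and pair no tumors. With the dyes as labelled the difference of MMTV-Her2/neu was 0.235, broad losses numbered 1 (0 in MMTV-Her2/neu), both shared lengths were 0 Mb and distal gains 11. For that difference of -0.235, leaving out single tumors gave -0.322 to -0.196, leaving out the 4 arrays of the near-identical pairs -0.206 and comparison within scan dates -0.230, both no longer past the threshold. Leaving out those 4 arrays also left 0 models and 0 pairs of models different, 0 of 3 stretches, and 7 broad losses with 2 in MMTV-Her2/neu. The zero of the interval table, added after seeing the data, gave 1 model, 4 pairs, 102 lower bins and 5 distal gains. With both changes together 1 model and 3 pairs passed, and the difference was -0.315, past the threshold. Within slides 1 model and 0 pairs passed, within scan dates 0 and 3, and on slides with an MMTV-Her2/neu array alone 1 and 0, with 111 lower bins. Normexp background gave 23 lower bins and array weights 111. Single tumors left out gave 0 to 2 models, 0 to 6 pairs, 3 stretches each time, 0 to 107 bins, 10 to 11 broad losses (3 to 4 in MMTV-Her2/neu) and 1 to 2 distal gains; the highest bin count came without H2N64, and the distal count fell without C Myc_04004021 or PyMt435. The stretch shared by all 5 MMTV-Her2/neu tumors was 0 Mb after lowess and with the deposited intervals, 1.87 Mb at a threshold of 0.3, 6.62 Mb at a split statistic of 8, and 3.60 to 125.1 Mb with tumors left out (125.1 without H2N64), and that of all but 1 tumor 125.1 to 125.7 Mb. Distal gains numbered 6 with a running median of 11 probes and 5 with the deposited intervals. The cause of these changes was not tested. The other alternatives kept each tested result's direction and side of the threshold. Counts without a test could still move, and broad losses numbered up to 15. Correction for GC content was not run, and shallow changes on the noisiest arrays were not tested against their noise.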
